A study of Arabidopsis thaliana with 12 samples.

Results

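The type II alternative NAD(P)H dehydrogenases of Arabidopsis thaliana are a family of 7 nuclear genes, NDA1, NDA2, NDB1, NDB2, NDB3, NDB4 and NDC1. The genes were taken by locus from the 33602 gene models of the count files. All 7 passed the filter on low counts in the fit of all 12 libraries, NDB4 only through the group in which it was high. Total RNA was sequenced from 12 libraries in 4 groups of 3, whose titles give the mutant, dyw2 or nuwa, and its state, heterozygous or homozygous. Both mutants are T-DNA knock-outs of genes for pentatricopeptide repeat proteins that edit organelle RNA, DYW2 and NUWA (also called OTP100), and the series asked which nuclear and organelle transcripts are altered when either gene is knocked out. Every library pooled flower bud, rosette and stem of soil-grown plants at Boyes stage 5.10, kept at 18 °C in the 8 h night and 20 °C in the 16 h day. The controls were heterozygotes, so all 12 libraries carried 1 of the insertions. A rescuing transgene in the homozygous plants and the positions of the insertions are not given in the sources used here.

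Plant mitochondria have 2 ways to pass electrons from NAD(P)H to ubiquinone. Complex I is a large proton-pumping enzyme built from mitochondrial and nuclear subunits, and the type II enzymes are single polypeptides on the inner membrane that pump no protons. NDA proteins face the matrix and oxidise internal NADH, NDB proteins face the intermembrane space and oxidise cytosolic NADH or NADPH, and NDC1 is also sent to plastids, where it sits on plastoglobules, reduces plastoquinone and is needed to make phylloquinone. Together with alternative oxidase they form a respiratory path that does not conserve energy, and some members are known to be induced with AOX1A under stress.

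The libraries held 13329334 to 24632485 counted reads in the group labelled dyw2 homozygous and 37496733 to 97804029 in the other 3 groups. Plastid genes took 26.6 to 32.5% of the reads in that group and 57.2 to 66.9% elsewhere. Levels are therefore given as normalised CPM, a gene's reads relative to a library total that TMM, a method that centres the bulk of the genes, had rescaled. Scaling by all counts instead moved the median of all genes in the dyw2 comparison from -0.05 to 1.26 on the log2 scale, and scaling by nuclear counts moved it to 0.45. The targeted genes did not fall with their labels. DYW2 stood at 5.57 to 7.08 normalised CPM in its heterozygous group and at 9.50 to 11.0 in its homozygous group, and NUWA at 0.351 to 0.905 and 0.761 to 1.34 in those labelled nuwa heterozygous and nuwa homozygous. A T-DNA insertion can leave transcript on either side of it, so these counts do not check the genotypes. The genotype field contradicts the title of 2 libraries, since it gives nuwa for dyw2 homozygous replicate 2 and dyw2 for nuwa homozygous replicate 3. Groups here follow the titles, and every direction below is that of the libraries so labelled.

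Marker genes of the pooled organs also differed between groups. The 12 flower bud markers summed to 41.7 to 141 normalised CPM in the libraries labelled dyw2 heterozygous and 5.35 to 10.5 in the homozygous ones, where 3 of the 12 were at 0 in every library. They summed, in those labelled nuwa heterozygous, to 80.6 to 141, and in those labelled nuwa homozygous to 8.54, 3.62 and 74.8. The 2 late pollen markers were at 0 in all 3 libraries labelled dyw2 homozygous. The 4 rosette leaf markers summed to 2736 to 4421 normalised CPM there and to 20292 to 28352 in the other groups, and the 5 stem markers to 4.37 to 8.74 and 6.14 to 18.8. In such pooled tissue, fewer cells of a type and less RNA per cell cannot be told apart.

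In the libraries labelled dyw2 homozygous, edgeR's quasi-likelihood test called 6 of the 7 genes changed at an adjusted p under 0.05: NDA2, NDB2, NDB3 and NDB4 rose, NDA1 and NDC1 fell, and NDB1 was not called. The background was high, since 62.9% of the 21213 genes tested were called, 30.1% higher and 32.8% lower, so the count of calls says little about the family. On the TMM scale the falls were 1.52-fold for NDA1 and 1.66-fold for NDC1, and the rises ran from 1.71-fold for NDA2 to 734-fold for NDB4. For nuwa, where 2.18% of all genes were called, 1.54% higher and 0.636% lower, 1 of the 7, NDB4, rose in the libraries labelled homozygous, by 8.17-fold. NDB4 passed the filter on low counts only through its reads in the libraries labelled dyw2 homozygous. The median log2 fold change over the 7 genes was 0.77 for dyw2 and 0.46 for nuwa, beside -0.05 and -0.02 over all genes tested.

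**Figure D1:**
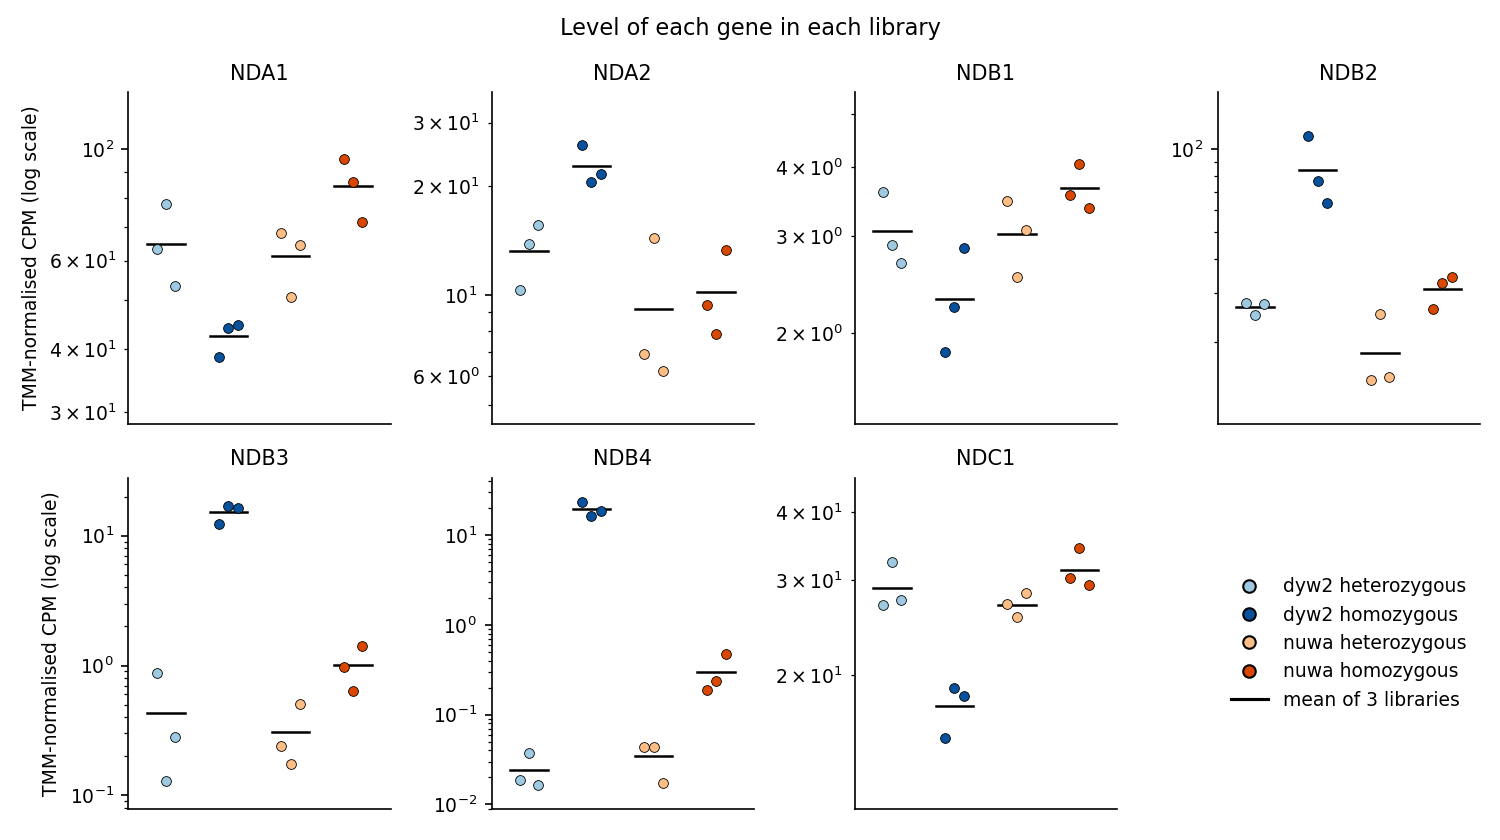
Normalised CPM of each of the 7 genes in each of the 12 libraries, on a log axis, with points for libraries and bars for the mean of 3. NDB3 and NDB4 are at 0.130 to 0.880 and 0.0165 to 0.0440 in the heterozygous groups and at 12.3 to 16.9 and 16.5 to 23.48 in the libraries labelled dyw2 homozygous, while for NDB1 each homozygous group overlaps its own heterozygous group.

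The external enzymes carried the large changes. NDB4 (AT2G20800, TAIR10.1 chromosome 2, 8953057 to 8955831, minus strand, 6 exons) encodes an external NADH dehydrogenase known to need no calcium. It had 1, 2 and 1 reads in the dyw2 heterozygous group and 2, 3 and 1 in the nuwa heterozygous group. It reached 698, 834 and 606 reads in those labelled dyw2 homozygous, which is 23.48, 16.5 and 18.4 normalised CPM, and 8, 7 and 20 reads in those labelled nuwa homozygous, which is 0.190, 0.235 and 0.476. Each homozygous group lay wholly above its heterozygous group, and the groups labelled homozygous did not overlap each other.

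The log2 fold change of NDB4 was 9.52 ± 0.38 (SE) for dyw2 with an edgeR adjusted p of 6.56e-08, and 3.03 ± 0.48 for nuwa with an edgeR adjusted p of 0.0115. Because the denominators are so small, the fold itself is loose: the pooled counts, 2138 against 4, gave a ratio of 793 with an exact 95% interval of 309 to 2912, and 35 against 6 gave 8.77 with an interval of 3.65 to 25.5. These intervals cover counting error only, yet they are wider than the SEs above would give. Those SEs are derived from the F statistic and understate the error at so few reads. The fitted dyw2 fold stayed between 633 and 959 when any 1 library was left out, and a covariate for the flower bud score gave 1113. That score was -0.26 to 3.25 in the dyw2 heterozygous group and -2.43 to -1.59 in the dyw2 homozygous group. The groups share no score, so the covariate fit is a weak check of any dyw2 fold. The nuwa call is the weaker of the pair: the edgeR adjusted p was 0.059 with libraries scaled by all counts, and the gene did not pass the filter on low counts when only the 6 nuwa libraries were used.

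NDB3 (AT4G21490, TAIR10.1 chromosome 4, 11436326 to 11439506, minus strand, 10 exons) encodes a further external dehydrogenase. Its reads numbered 47, 7 and 17 in the dyw2 heterozygous group and 367, 855 and 540 in the dyw2 homozygous group, or 0.880, 0.130 and 0.280 against 12.3, 16.9 and 16.4 normalised CPM. It stood at 0.242, 0.175 and 0.505 normalised CPM in the libraries labelled nuwa heterozygous and at 0.975, 0.637 and 1.40 in those labelled nuwa homozygous. Neither homozygous group overlapped its own heterozygous group, but dyw2 heterozygous replicate 1 stood within the range of the libraries labelled nuwa homozygous.

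NDB3 rose 35.4-fold in the libraries labelled dyw2 homozygous (log2 5.15 ± 0.55, edgeR adjusted p 1.11e-05). That fold rests on 1 heterozygous library for its size: without dyw2 heterozygous replicate 1 it was 72.1. With a covariate for flower bud markers it was 80.6, with the limit given for NDB4. For nuwa the log2 fold change was 1.73 ± 0.57 with an edgeR adjusted p of 0.137. DESeq2 called it (adjusted p 0.0326), and so did edgeR with that covariate (0.0414) and without dyw2 heterozygous replicate 1 (0.044).

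NDB2 (AT4G05020, TAIR10.1 chromosome 4, 2572427 to 2576599, plus strand, 11 exons) encodes the calcium-stimulated external NADH dehydrogenase that is known to be co-induced with AOX1A. It was the most abundant external member per length in every group. Its level was 27.7, 24.9 and 27.5 normalised CPM in the dyw2 heterozygous group and 111.7, 76.8 and 64.0 in the dyw2 homozygous group. The groups labelled nuwa heterozygous and nuwa homozygous had 14.5, 25.1 and 14.9, and 26.4, 32.6 and 34.2. Both homozygous groups lay above their own controls.

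The rise of NDB2 in the libraries labelled dyw2 homozygous was 3.15-fold (log2 1.66 ± 0.24, edgeR adjusted p 0.000124). For nuwa the log2 fold change was 0.77 ± 0.24 and was not called by edgeR (adjusted p 0.12), though DESeq2 called it (adjusted p 0.0216).

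NDB1 (AT4G28220, TAIR10.1 chromosome 4, 13992210 to 13995831, plus strand, 9 exons) encodes the external enzyme that oxidises NADPH. Its level was 3.62, 2.89 and 2.69 normalised CPM in the dyw2 heterozygous group and 1.85, 2.23 and 2.85 in the dyw2 homozygous group. The libraries labelled nuwa heterozygous had 3.48, 2.53 and 3.08, and those labelled nuwa homozygous 3.57, 4.06 and 3.38. Both pairs of groups overlapped. The log2 fold change was -0.40 ± 0.20 for dyw2 (edgeR adjusted p 0.0927, and 0.0347 without dyw2 homozygous replicate 3), but 0.88 when libraries were scaled by all counts, and 0.28 ± 0.19 for nuwa (edgeR adjusted p 0.466). In the annotation 53 bases of NDB1 overlap AT4G28230 on the opposite strand, so its counts are uncertain as far as the counting ignored strand.

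**Figure D2:**
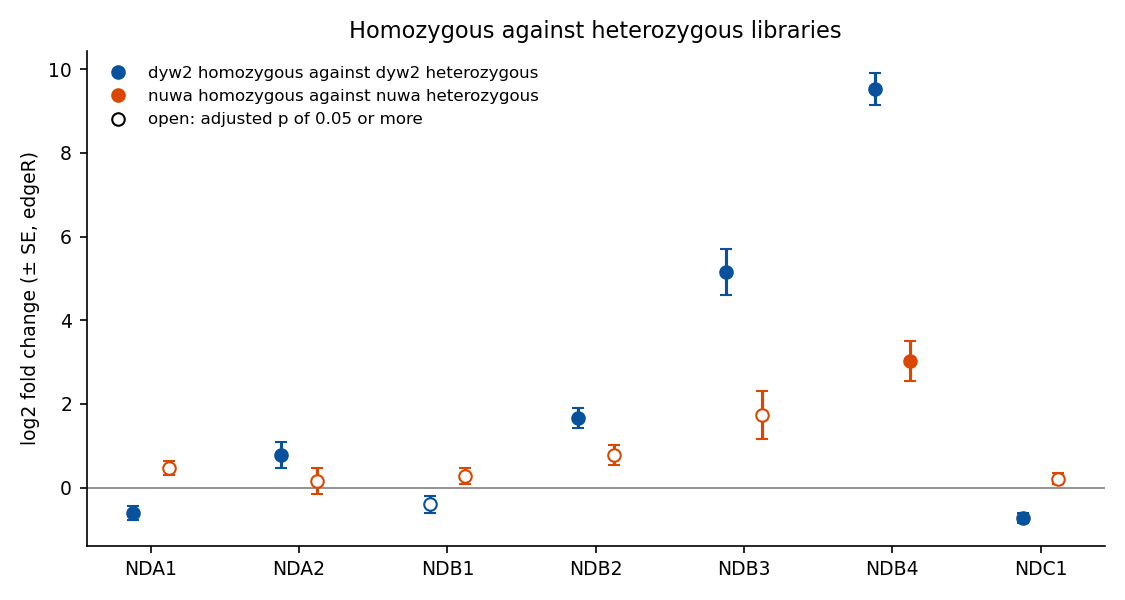
Log2 fold change of the 7 genes in the libraries labelled homozygous against those labelled heterozygous, for dyw2 (blue) and nuwa (orange). Bars are SEs derived from the edgeR F statistic, and those of NDB4 are too narrow for its few heterozygous reads. Open points have an edgeR adjusted p of 0.05 or more. NDB4 is highest for both mutants, at 9.52 and 3.03, and NDA1 and NDC1 are below 0 for dyw2 at -0.61 and -0.73.

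The internal enzymes had opposite directions in the libraries labelled dyw2 homozygous on the TMM scale, but not with all counts as library size, and neither was called for nuwa. NDA1 (AT1G07180, TAIR10.1 chromosome 1, 2204104 to 2207099, plus strand, 8 exons), a matrix-facing NADH dehydrogenase known to be under light control, stood at 63.3, 77.7 and 53.3 normalised CPM in the dyw2 heterozygous group and at 38.7, 44.0 and 44.7 in the dyw2 homozygous group. The libraries labelled nuwa heterozygous had 68.2, 50.7 and 64.6, and those labelled nuwa homozygous 95.4, 85.8 and 71.7. The libraries labelled dyw2 homozygous were the lowest of the 12 and those labelled nuwa homozygous lay above their controls.

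NDA1 fell 1.52-fold in the libraries labelled dyw2 homozygous on the TMM scale (log2 -0.61 ± 0.17, edgeR adjusted p 0.00885), but its log2 fold change was -0.09 per nuclear count and 0.71 per count of all genes. As plain CPM of all counts, the same libraries had 86.3 to 90.5 against 43.6 to 62.3. For nuwa the log2 fold change was 0.46 ± 0.17 and was not called (edgeR adjusted p 0.179).

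NDA2 (AT2G29990, TAIR10.1 chromosome 2, 12793320 to 12796085, minus strand, 8 exons), the second internal enzyme, stood at 10.4, 13.9 and 15.7 normalised CPM in the dyw2 heterozygous group and at 26.1, 20.5 and 21.7 in the dyw2 homozygous group. Those labelled nuwa heterozygous had 6.89, 14.4 and 6.18, and those labelled nuwa homozygous 9.42, 7.81 and 13.4. The dyw2 groups did not overlap and the nuwa groups did.

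NDA2 rose 1.71-fold in the libraries labelled dyw2 homozygous (log2 0.77 ± 0.30, edgeR adjusted p 0.0428), close to the threshold. The call was lost without any 1 of 6 libraries, which were dyw2 heterozygous replicates 1 and 2, all 3 labelled dyw2 homozygous and nuwa homozygous replicate 1, with edgeR adjusted p from 0.0514 to 0.133. The call was also lost with the flower bud covariate (edgeR adjusted p 0.0777), which has the limit given for NDB4. The log2 fold change for nuwa was 0.15 ± 0.31 (edgeR adjusted p 0.821).

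NDC1 (AT5G08740, TAIR10.1 chromosome 5, 2848352 to 2851534, minus strand, 10 exons), the member with a plastid role, had 26.9, 32.4 and 27.5 normalised CPM in the dyw2 heterozygous group and 15.2, 18.9 and 18.3 in the dyw2 homozygous group. Those labelled nuwa heterozygous had 27.1, 25.6 and 28.4, and those labelled nuwa homozygous 30.2, 34.3 and 29.3. Neither pair of groups overlapped, the dyw2 pair with the homozygous libraries lower and the nuwa pair with them higher.

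NDC1 fell 1.66-fold in the libraries labelled dyw2 homozygous on the TMM scale (log2 -0.73 ± 0.12, edgeR adjusted p 0.000379), while its log2 fold change was -0.21 per nuclear count (edgeR adjusted p 0.133) and 0.59 per count of all genes. For nuwa it was 0.21 ± 0.12 and was not called (edgeR adjusted p 0.377).

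**Figure D3:**
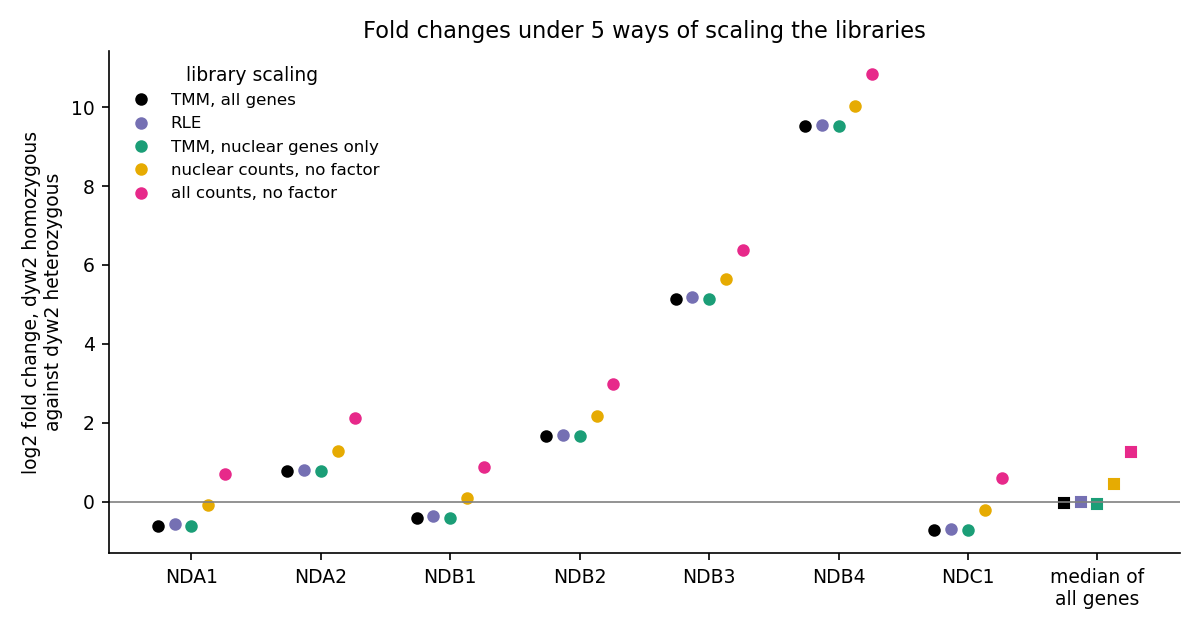
Log2 fold change of the 7 genes in the libraries labelled dyw2 homozygous against those labelled dyw2 heterozygous under 5 ways of scaling the libraries, with the median of all genes tested as squares. NDB2, NDB3, NDB4 and NDA2 are above 0 under each, whereas NDA1, NDB1 and NDC1 are at -0.61, -0.40 and -0.73 with TMM and at 0.71, 0.88 and 0.59 with all counts and no factor.

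Shares within the family do not depend on how libraries are scaled. They sum to the whole, however, so a rise of some members lowers the shares of the others whatever their own levels do. Per length (RPKM, here normalised CPM per kilobase of gene model), NDA1 made up 49.98% ± 4.60 (SD, n = 3) of the summed level of the 7 genes in the libraries labelled dyw2 heterozygous and 23.49% ± 3.79 in those labelled dyw2 homozygous. NDC1 went from 21.0% ± 0.716 to 9.06% ± 1.72. NDB2 went from 15.8% ± 2.39 to 34.4% ± 6.85, NDB3 from 0.354% ± 0.332 to 8.66% ± 2.06 and NDB4 from 0.0180% ± 0.00644 to 10.5% ± 1.15. For each of these 5 genes the 3 libraries of one group lay wholly outside the range of the other. The same held for the share of NDB1, at 1.82 to 2.63% in the dyw2 heterozygous group and 0.830 to 1.52% in the dyw2 homozygous group, though its levels overlapped. The shares of NDA2 overlapped, at 8.54 to 13.5% and 11.9 to 13.2%. NDB2, NDB3 and NDB4 together held 13.2 to 17.8% of the family in the dyw2 heterozygous group and 49.1 to 59.7% in the dyw2 homozygous group.

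Between the groups labelled nuwa the shares of NDC1 and NDB4 did not overlap and those of the other 5 genes did. NDC1 held 22.4% ± 1.11 in the libraries labelled nuwa heterozygous and 19.2% ± 1.40 in those labelled nuwa homozygous, although its mean RPKM was 14.1 and 16.4. NDB4 held 0.0307% ± 0.0133 and 0.199% ± 0.112. NDB2, NDB3 and NDB4 together held 12.6% ± 4.16 and 16.4% ± 2.97, and the ranges overlapped. NDA1 held 54.2% ± 7.40 and 55.2% ± 5.31. Within the internal pair, NDA1 gave 82.4% ± 4.76 of the summed RPKM of NDA1 and NDA2 in the dyw2 heterozygous group and 64.6% ± 4.69 in the dyw2 homozygous group. That share was 86.4% ± 7.72 and 88.8% ± 4.15 in those labelled nuwa heterozygous and nuwa homozygous.

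**Figure D4:**
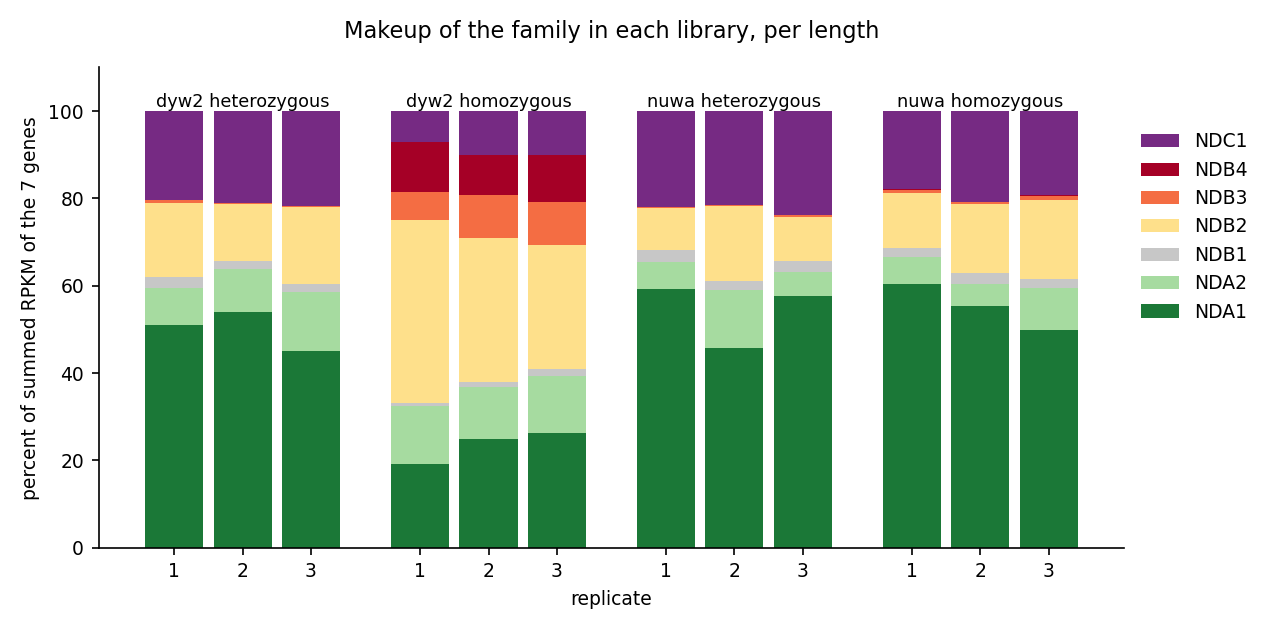
Percent of the summed RPKM of the 7 genes held by each gene in each library, stacked to 100%. NDB2, NDB3 and NDB4 together hold 49.1 to 59.7% in the libraries labelled dyw2 homozygous and NDA1 19.2 to 26.3%, against 45.0 to 54.0% for NDA1 in those labelled dyw2 heterozygous.

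In order of mean RPKM, the libraries labelled dyw2 heterozygous had NDA1 at 36.2 ± 6.84 (SD, n = 3), NDC1 at 15.1 ± 1.58, NDB2 at 11.3 ± 0.657, NDA2 at 7.61 ± 1.54, NDB1 at 1.55 ± 0.247, NDB3 at 0.247 ± 0.228 and NDB4 at 0.0133 ± 0.00622. Those labelled dyw2 homozygous had NDB2 first at 35.6 ± 10.5, then NDA1 at 23.8 ± 1.85, NDA2 at 13.01 ± 1.67, NDB4 at 10.7 ± 2.0, NDC1 at 9.14 ± 1.03, NDB3 at 8.72 ± 1.43 and NDB1 at 1.17 ± 0.256. In the latter group NDC1 and NDB3 differed by less than the SD of either, and NDB4 and NDC1 by less than the SD of NDB4 but more than that of NDC1. The summed RPKM of the family was 72.1 ± 7.39 and 102.1 ± 9.38 in these groups, and 63.0 ± 1.18 and 85.1 ± 4.16 in those labelled nuwa heterozygous and nuwa homozygous, on the TMM scale.

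Across the 4 groups the libraries labelled dyw2 homozygous had the highest normalised CPM of NDA2, NDB2, NDB3 and NDB4 and the lowest of NDA1, NDB1 and NDC1, whose place turns with scaling by all counts. For NDB2 and NDB3 the next group was that labelled nuwa homozygous, and it did not overlap the first, while the lower 3 groups overlapped their neighbours. For NDB4 the group labelled nuwa homozygous was apart from both the group above and the groups below, and the heterozygous groups overlapped. For NDA1 and NDC1 the only step without overlap was that down to the group labelled dyw2 homozygous, and for NDA2 that up to it.

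Testing the difference between the effects themselves, edgeR called 4 of the 7 genes, where 40.9% of all genes were called, 19.2% higher and 21.7% lower. The dyw2 effect exceeded the nuwa effect for NDB4 by 6.49 ± 0.94 on the log2 scale (edgeR adjusted p 0.000272) and for NDB3 by 3.42 ± 0.78 (edgeR adjusted p 0.00485). It was below the nuwa effect for NDA1 (-1.07 ± 0.24, edgeR adjusted p 0.00447) and NDC1 (-0.94 ± 0.18, edgeR adjusted p 0.00141), but with all counts as library size these were 0.23 and 0.34 and were not called. NDB2 was just outside the threshold (0.89 ± 0.34, edgeR adjusted p 0.0547), and NDA2 (0.62 ± 0.43) and NDB1 (-0.68 ± 0.28) were not called, with edgeR adjusted p of 0.272 and 0.0689.

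The groups labelled heterozygous gave a view of the family without a homozygous insertion. None of the 7 genes was called between them by edgeR (1 had an unadjusted p under 0.05) or by DESeq2, where 0.132% of all genes were called, 0.0283% higher and 0.104% lower. The groups overlapped for each of the 7, while 11.2% of all genes tested had no overlap. Their log2 differences, dyw2 heterozygous less nuwa heterozygous, ran from -0.51 for NDB4 to 0.55 for NDB2. The value of NDB4 rests on 4 and 6 reads. Between the groups labelled homozygous, where 59.8% of all genes were called, 30.8% higher and 29% lower, all 7 were called by edgeR. The groups did not overlap for any of the 7, nor for 66.4% of all genes tested, so neither count sets the family apart. NDB4 was 63.2-fold, NDB3 14.9-fold, NDB2 2.71-fold and NDA2 2.22-fold higher in those labelled dyw2 homozygous. NDA1, NDC1 and NDB1 were 1.98-fold, 1.79-fold and 1.58-fold lower there on the TMM scale, and 1.40-fold, 1.52-fold and 1.72-fold higher with all counts as library size.

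Both libraries with disputed labels had family levels near those of the group in their title. Dyw2 homozygous replicate 2 had NDB4 at 16.5 normalised CPM and NDB3 at 16.9, beside 18.4 to 23.48 and 12.3 to 16.4 in the others of that title. Nuwa homozygous replicate 3 had them at 0.476 and 1.40, beside 0.190 to 0.235 and 0.637 to 0.975. When the genotype field set the groups instead, edgeR called none of the 7 genes for either mutant at an adjusted p under 0.05, and no gene of the whole table. For each mutant 3 of the 7 had an unadjusted p under 0.05. So did 5346 of all 21213 genes for dyw2 and 3364 for nuwa. Nuwa homozygous replicate 3 was also the library of its group with flower bud markers at 74.8, and it had the highest NDB2, NDB3 and NDB4 and the lowest NDA1 of the 3. The part of organ makeup in these values was not tested.

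Sequence upstream of the genes is shown because a short motif is known to recruit the NAC factors, ANAC013 among them, that act on mitochondrial dysfunction genes. It reads CTTG, then any 5 bases, then CAAG in a first form or CACG in a second, and both forms were searched on both strands in the 500 bases before each annotated gene start. In all 27443 protein-coding promoters of TAIR10.1, 1.29% held the first form, 0.831% the second and 2.09% either. Of the 7 dehydrogenase genes, NDA1, NDB2 and NDB3 had 1 match each, and of the other listed stress and oxidase genes AOX1B, UPOX and HSP23.5 did. The 30 bases around each match follow on the strand of the gene, with the match in capitals, from RefSeq's TAIR10.1 sequence:
NDA1 (chr1:2204026-2204055, plus strand): tgtcgtttCTTGCGCATCAAGttctgctga
NDB2 (chr4:2572340-2572369, plus strand): cgatctggCTTGGCCACCAAGattgtttga
NDB3 (chr4:11439611-11439640, minus strand): actcttgcCGTGGCCGTCAAGtcaaaccaa
UPOX (chr2:9254319-9254348, plus strand): tttagtaaCTTGCTCTCCAAGgagatctag
HSP23.5 (chr5:20891045-20891074, plus strand): ttattttaCTTGGAGACCACGcagttctag
AOX1B (chr3:7903971-7904000, plus strand): tgtcttttCGTGTGCTACAAGtcttttagt

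The match in NDA1 ran from position -70 to -58 and that in NDB2 from -79 to -67, counted from the gene start, and both were of the first form. That in NDB3 ran from -126 to -114 and was the second form read on the other strand. NDB4, the gene with the largest rise, held neither form, and of the other motifs searched (ACGTG, AAAATATCT and GATAAG, on both strands, in 35.5%, 4.44% and 22.5% of all promoters) it held GATAAG once, at -434. Its 300 bases before the start are given for comparison with the sites above, with no capitals because no match lies in them:
NDB4 (chr2:8955832-8956131, minus strand): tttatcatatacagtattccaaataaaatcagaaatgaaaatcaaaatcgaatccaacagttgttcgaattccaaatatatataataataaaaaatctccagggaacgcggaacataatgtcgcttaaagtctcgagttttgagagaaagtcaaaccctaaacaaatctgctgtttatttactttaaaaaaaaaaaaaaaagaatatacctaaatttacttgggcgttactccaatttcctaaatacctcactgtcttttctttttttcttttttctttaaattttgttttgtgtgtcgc

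None of the 5 motifs was found before NDA2, NDB1 or NDC1. So 1 of the 3 dehydrogenase genes with a match to the dysfunction motif, NDA1, was lower in the libraries labelled dyw2 homozygous on the TMM scale and higher with all counts as library size, and the other 2 were higher. A match describes letters in a window and is not evidence of a bound site.

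The members are similar enough in sequence to ask whether reads could be shared. Coding bases of NDB2 and NDB3 were 84.8% identical over their alignment and those of NDA1 and NDA2 81.1%, while NDB4 was 72.1% identical to each of NDB2 and NDB3. The longest run shared by any pair was 37 bases, between NDB2 and NDB3. No stretch of 50 bases in any member's transcript occurred at more than 1 place in the genome. Reads that aligned equally well to more than 1 place had been removed by the authors before counting, per the file headers.

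The alternative oxidases of mitochondria take electrons from the ubiquinone that the dehydrogenases reduce. The list read here also holds PTOX, the plastid terminal oxidase. Of 6 listed genes 5 were tested, and in the libraries labelled dyw2 homozygous 4 rose, with a median log2 fold change of 3.42 over the 5. The 1 not called was PTOX (log2 0.22 ± 0.14, edgeR adjusted p 0.184). Of all genes tested, 30.1% were called higher in that comparison. AOX1A, the stress-induced isoform, was at 18.6, 23.9 and 26.3 normalised CPM in the dyw2 heterozygous group and at 231, 265 and 239 in the dyw2 homozygous group, 10.7-fold higher. AOX1D rose 107.6-fold, from 0.204 to 0.581 normalised CPM up to 30.2 to 47.7. AOX1B rose from 4 reads over the 3 libraries to 33, 35 and 34 reads. For nuwa, AOX1A alone was called, 2.49-fold higher, where 2.18% of all genes were called. The median over the 5 was 0.20, the value of PTOX.

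Listed genes that regulate or mark mitochondrial stress were mostly called higher for dyw2, and fewer were called for nuwa. Of all genes tested, 30.1% were called higher for dyw2 and 1.54% for nuwa. The lists were chosen with earlier results of these data known, so their counts are a description only. Of 10 tested regulators of mitochondrial retrograde signalling 9 rose in the libraries labelled dyw2 homozygous, with a median of 1.24, and WRKY40 was not called (log2 -0.25 ± 0.46). WRKY63 rose 11.1-fold, ANAC013, a NAC factor of the mitochondrial dysfunction response, 7.20-fold and its relative ANAC016 5.77-fold. For nuwa, ANAC013 alone of the 10 was called, 2.43-fold higher, and the median was 0.05. All 8 other stress genes listed rose in the libraries labelled dyw2 homozygous, with a median of 5.97, among them UPOX at 147-fold, AT2G32020 at 130-fold and AT12CYS-2 at 104-fold. In those labelled nuwa homozygous 4 of the 8 rose, HSP23.5, a mitochondrial small heat shock protein, by 14.3-fold, UPOX by 8.18-fold and AT12CYS-2 by 7.16-fold. NDB4, at 734-fold and 8.17-fold, stood above each of these in the dyw2 comparison and beside UPOX in the nuwa comparison.

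Complex I, the enzyme whose place the type II dehydrogenases can take, has subunits encoded in both genomes. Of 14 mitochondrial nad loci 12 were tested, and 10 rose in the libraries labelled dyw2 homozygous with a median log2 fold change of 1.74, nad5b by 7.99-fold, nad7 by 5.78-fold and nad5a by 5.16-fold. In those labelled nuwa homozygous 6 of 12 rose, with a median of 0.88, nad9 by 4.56-fold, the nad1 locus ATMG01120 by 2.30-fold and nad5a by 2.17-fold. Of all genes tested, 30.1% were called higher for dyw2 and 1.54% for nuwa. Other mitochondrial genes rose as well: of the 70 outside the nad list 66 rose and none fell for dyw2, with a median of 2.60, and 16 rose and none fell for nuwa, with a median of 0.63. Mitochondrial genes took 0.322 to 0.385% of the reads in the dyw2 heterozygous group and 2.83 to 3.01% in the dyw2 homozygous group, and 0.306 to 0.344% and 0.490 to 0.586% in those labelled nuwa heterozygous and nuwa homozygous.

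Of 33 nuclear complex I genes 6 rose and 17 fell in the libraries labelled dyw2 homozygous on the TMM scale, with a median of -0.39, beside 30.1% of all genes called higher and 32.8% lower, but 28 rose and none fell with all counts as library size. The 75kDa subunit (3.24-fold), PSST (1.68-fold) and GLDH (2.09-fold), which makes ascorbate and assists the assembly of complex I, were higher. B16.6-2, SGDH and NDUFS4 fell 2.77-fold, 2.45-fold and 2.38-fold on the TMM scale, and were at -0.16, 0.02 and 0.06 on the log2 scale with all counts as library size. For nuwa, edgeR called none of the 33 at an adjusted p under 0.05, with CA2 at 0.23 ± 0.10 and the 75kDa subunit at 0.82 ± 0.31 on the log2 scale. Of the 33, 6 had an unadjusted p under 0.05, a cut at which all genes were not counted. DESeq2 called 2 of the 33, and 1413 of all genes.

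For the plastid side of NDC1, 10 plastoglobule proteins and 8 genes of phylloquinone synthesis were read in the same way. In the libraries labelled dyw2 homozygous 5 plastoglobule genes fell, 1 rose and 4 were not called on the TMM scale, with a median of -0.55 that became 0.75 with all counts as library size. Of all genes tested on the TMM scale, 30.1% were called higher and 32.8% lower in that comparison. CCD4, a carotenoid cleavage dioxygenase, fell 6.12-fold and the fibrillin genes FBN4 and FBN1A 3.95-fold and 2.53-fold, while PES2, which makes phytyl esters, rose 4.98-fold. All 8 phylloquinone genes fell on the TMM scale, with a median of -1.68, MENE by 6.35-fold, ICS2 by 5.40-fold and MENA by 4.54-fold, and with all counts as library size 3 fell and 1 rose. For nuwa edgeR called none of these genes. An unadjusted p under 0.05, a cut at which all genes were not counted, was found for 3 of the 10 plastoglobule genes and 0 of the 8 phylloquinone genes. DESeq2 called 2 and 0 of them, and 1413 of all genes. Rosette leaf markers and plastid reads were lower in the same libraries, as given above, and their part in these values was not tested.

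**Figure D5:**
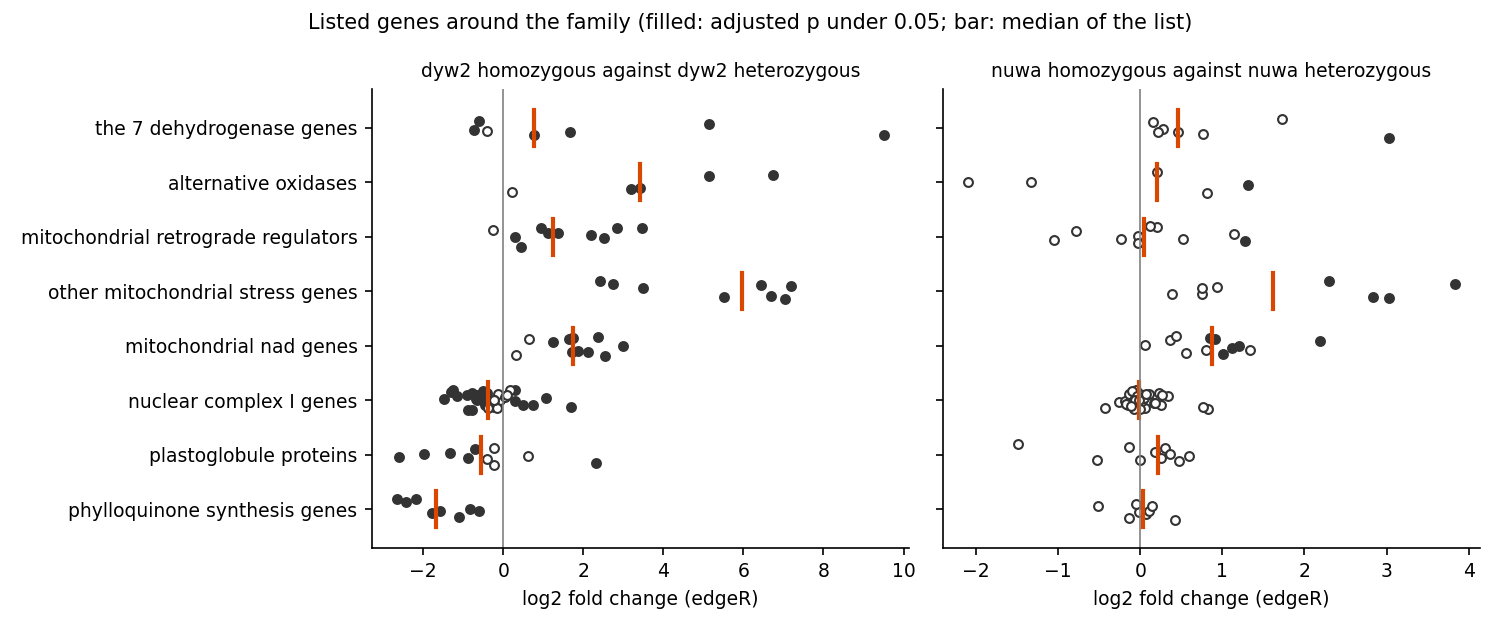
Log2 fold changes from edgeR of the 7 dehydrogenase genes and of the listed genes around them, for dyw2 on the left and nuwa on the right, with filled points for genes called and a bar at each list's median on axes of different range. The medians for dyw2 run from -1.68 for phylloquinone synthesis on the TMM scale, -0.37 with all counts as library size, to 5.97 for the stress genes, and those for nuwa from -0.01 to 1.62.

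The genes whose log2 levels followed each member most closely over the 12 libraries were found among 14170 nuclear genes with a mean log2 CPM of at least 1. For NDB4 they were AT2G07775, ALAAT2 and ECT1 with Pearson's r of 0.996, 0.994 and 0.994, and for NDB3 PWP2, AT1G67580 and AT1G02370, each with r of 0.987. For NDB2 they were AT1G09640, CYP72A8 and AT3G61280 (r of 0.982, 0.980 and 0.980), and for NDC1 CRD1, ACD2 and SLP1 (0.986, 0.985 and 0.985). CRD1 acts in chlorophyll synthesis and ACD2 in chlorophyll breakdown. For NDA1 the closest was AT3G58830 (0.968), for NDA2 ATOBGM (0.987) and for NDB1 ABCB28 (0.960). The 12 libraries share their scaling and fall into 4 groups, so these values describe the likeness of group patterns and carry no test.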

How the data were processed

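Total RNA depleted of ribosomal RNA was sequenced with a stranded kit, per the labels. Reads were aligned with TopHat2 and Bowtie2 to TAIR10, per the submitters' processing notes, and reads aligned equally well to several places were removed, per the file headers. The deposited values used are raw counts of reads with a single best place per gene, with a gene model length beside each. Whether counting used strand, and the read length, are not given in the sources used here.

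From these counts the 12 libraries were fitted in 1 model of 4 groups with edgeR 4.0.16 (R 4.3.3): TMM factors, filterByExpr with a minimum count of 10 and minimum total of 15, quasi-likelihood F tests on 8 residual degrees of freedom, and Benjamini-Hochberg adjustment over 21213 genes, called at an adjusted p under 0.05. SE is the absolute log2 fold change divided by the square root of F. It is too narrow for NDB4, whose heterozygous groups hold 4 and 6 reads. The edgeR step was also run on simulated counts in which few genes changed, as many up as down. That run cannot check the scaling where many genes changed, as for dyw2. Levels had been planned as CPM of all counts; because plastid shares differ, CPM and RPKM use TMM-scaled libraries. The series description calls the samples biological replicates, and replicate libraries differed beyond sampling noise. Libraries with the same replicate number did not deviate together, so they were not treated as pairs. The alternatives were DESeq2 1.42.0, RLE factors, no filter and a minimum count of 50, nuclear genes only, 2 groups only, a replicate block, groups from the genotype field, both disputed libraries left out, a flower bud covariate and each library left out. Scaling by all or by nuclear counts was added after seeing the data. Coordinates and promoters are from RefSeq's TAIR10.1 (nuclear sequence of TAIR10). The named genes are the 7 members, up to 3 called genes per direction of each list, or the 2 with the largest mean where none was called, and the closest 3 genes by Pearson's r. The members and lists were chosen with earlier results of these data known.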

Additional observations from a re-analysis of the deposited data

Results flagged for a closer look

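For 4 of the 7 genes the effect of the dyw2 label differed from that of the nuwa label by the edgeR test of the difference. That test called 40.9% of all genes, 19.2% higher and 21.7% lower, so the count does not set the family apart. The dyw2 effect was larger for NDB4 by 6.49 and for NDB3 by 3.42 on the log2 scale. It was lower for NDA1 (-1.07) and NDC1 (-0.94), which on the TMM scale fell in the libraries labelled dyw2 homozygous and were not called in those labelled nuwa homozygous; with all counts as library size both differences were above 0.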

How the results depend on the processing

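With groups from the genotype field 0 of the 7 genes were called for dyw2, for nuwa, for the difference between the effects and between the groups labelled homozygous. For nuwa, where 1 gene was called, DESeq2 called 3, the 6 nuwa libraries alone 0, the flower bud covariate 2 and all counts as library size 0, and leaving out 1 library at a time gave 1 to 2. With all counts as library size NDA1, NDB1 and NDC1 turned to 0.71, 0.88 and 0.59 for dyw2 and to 0.48, 0.78 and 0.61 between the groups labelled homozygous, and NDA1 and NDC1 to 0.23 and 0.34 for the difference. With this scaling the median of all genes was 1.26 for dyw2, 1.48 between the groups labelled homozygous and 1.29 for the difference. For nuwa it was 0.01. For all genes, the dyw2 calls of 6376 higher and 6964 lower became 14755 and 1924 with all counts and 9907 and 4292 with nuclear counts. The nuwa calls over all genes, 462, were 1413 with DESeq2, 6 with the nuwa libraries alone, 183 with the replicate block, 1411 without both disputed libraries, 279 with the flower bud covariate, 60 with all counts, 224 with nuclear counts, 0 with groups from the genotype field and 94 to 1735 without 1 library. With the replicate block NDA2 in dyw2 lost its call (edgeR adjusted p 0.0545), and it changed no other call of a member; same-numbered libraries correlated at -0.005 to 0.167 in their deviations from group means. Without both disputed libraries the difference for NDB4 was 140-fold and the ratio between the groups labelled homozygous 98.7-fold. Between those groups NDB1 lost its call without dyw2 homozygous replicate 1 (edgeR adjusted p 0.0547). With nuclear counts as library size, NDB1 and NDC1 lost their calls between the same groups, at -0.07 and -0.24 on the log2 scale (edgeR adjusted p 0.787 and 0.0885). The difference for NDB3 was 21.1-fold without dyw2 heterozygous replicate 1, and that for NDB2 was called by DESeq2, with nuclear or all counts, and without 1 of 3 libraries (dyw2 homozygous replicate 3, nuwa heterozygous replicates 1 and 3). In all, 767 of 831 alternative fold changes of the 7 genes kept direction and side of the threshold. The cause of the other changes was not tested. Depth limits NDB4, whose heterozygous groups rest on 4 and 6 reads.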
